A study of Drosophila melanogaster with 30 samples.

Results

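The genes described are the nuclear genes of the Drosophila melanogaster mitochondrial ribosome. They are the rows of the deposited count tables whose gene name begins with mRpL (large subunit) or mRpS (small subunit), with chromosome 4 left out. This gave 72 of 14284 genes, 46 named for the large and 26 for the small subunit. They lie on 2L (12 genes), 2R (12), 3L (17), 3R (20) and X (11), and none was on chromosome 4. All 72 passed the low-count filter for both marks.

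The mitochondrial ribosome makes the few proteins encoded by mitochondrial DNA, which in animals are all subunits of the respiratory chain and the ATP synthase. Its RNAs come from mitochondrial DNA, whereas all of its proteins are encoded in the nucleus, made in the cytoplasm and imported. Neuroblasts are the dividing stem cells of the larval brain, and neuroblasts overgrown after loss of brat have been reported to depend on oxidative metabolism. A gene name need not give the subunit: the mammalian counterparts of mRpS18A and mRpS30 sit in the large subunit.

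Micrococcal nuclease ChIP-seq of cells isolated from brains of wandering third-instar (L3) larvae measured H3K4me3, found at starts of active genes, and H3K27me3, the mark of Polycomb repression. Each mark was measured in neurons, in neuroblasts with RNAi against brat and numb, in neuroblasts with RNAi against brat alone and in type I neuroblasts, with 2 libraries per group. Brat is a translational repressor and Numb an inhibitor of Notch signalling, and the labels call both RNAi groups tumor neuroblasts. No drivers or further alleles are given, and no group holds normal type II neuroblasts, so the RNAi groups were compared with another neuroblast type. The labels do not say whether both libraries in a group came from separate animals, so a p-value reflects only how these libraries varied, which may be technical.

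Counts per library were 2461222 to 12258131 for H3K4me3 and 15281722 to 25009648 for H3K27me3. Each library also carries an SBa code of unstated meaning, treated here as a possible batch. The cell labels were checked against H3K4me3 at marker genes. The summed level of 6 neuroblast markers was 169 and 177 CPM (read counts scaled to library size, with TMM factors) in neurons, 491 and 995 in brat numb RNAi, 783 and 458 in brat RNAi and 1152 and 923 in type I neuroblasts. That of 7 neuronal markers was 833 and 563 CPM in neurons, 192 and 223 in brat numb RNAi, 175 and 199 in brat RNAi and 565 and 233 in type I neuroblasts. The neuronal sum thus overlapped between neurons and type I neuroblasts. Among the neuroblast markers, ase had the lowest mean in brat RNAi, 21.2 CPM. The lowest mean was 147 CPM in type I neuroblasts and 78.2 CPM in brat numb RNAi, both at mira. The sums of 5 glial markers (27.8 to 95.7 CPM) and of 5 hemocyte and fat body markers (18.4 to 67.4 CPM) were low in all 8 libraries. In bulk samples, a mark on fewer cells and less of it per cell cannot be told apart.

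H3K4me3 was counted in the 501 bases from each gene's start, so these levels compare genes at equal length. The mitoribosomal protein genes carried high H3K4me3 in every cell group. Their median level in a library lay at 165 and 101 CPM in neurons, 84.7 and 187 in brat numb RNAi, 176.5 and 99.9 in brat RNAi, and 219.8 and 178 in type I neuroblasts. In each library at least 71 of the 72 genes were above the median of all genes, which was 10.6 to 22.8 CPM, and 41 to 54 were above the upper quartile. Averaged over the 8 libraries, 71 of the 72 genes lay above the 60th percentile of all genes.

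**Figure D1:**
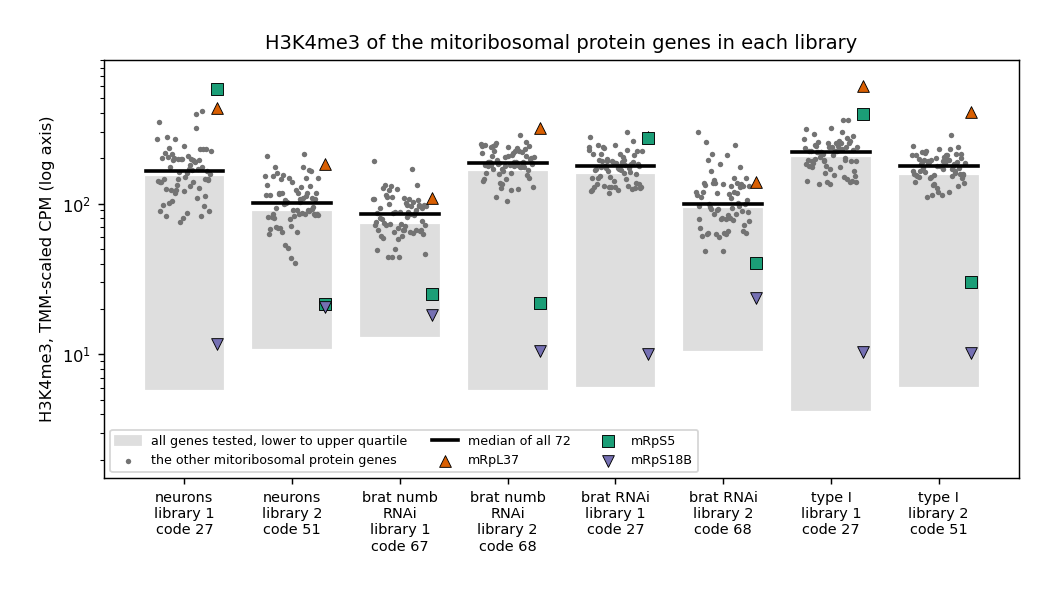
H3K4me3 of the 72 genes in each of 8 libraries (TMM-scaled CPM, log axis), with the span from lower to upper quartile of all genes tested in grey and the median of the 72 genes as a black line. The medians, 84.7 to 219.8 CPM, sit just above the upper quartile in every library, while mRpS18B stays low and mRpS5 is high in the 3 libraries of SBa code 27.

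The level of the set moved with its library as a whole. The 3 libraries with medians near 100 CPM or below were neurons library 2, brat numb RNAi library 1 and brat RNAi library 2, which were also the 3 with the fewest counts. In these 3 the lower quartile of all genes was 11.035, 13.2 and 10.6 CPM, against 4.28 to 6.18 CPM in the other 5. Divided by the upper quartile of all genes in the same library, the median of the 72 genes was 1.10 and 1.16 in neurons, 1.17 and 1.16 in brat numb RNAi, 1.14 and 1.09 in brat RNAi, and 1.09 and 1.16 in type I neuroblasts. On that scale the set stood at nearly the same height in all 8 libraries. The part of depth and of the lower quartile in the differences between groups was not tested.

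At the top of the set was mRpL37, a large-subunit protein with no bacterial counterpart, at a mean of 308 CPM over the 8 libraries (99.1st percentile of all genes). Its start (FBgn0261380) lies on the minus strand, dm3 chr3R:6609313-6609813. The next were mRpS18A (281 CPM), mRpL13 (265) and mRpS7 (243), the last the counterpart of a bacterial protein of the small subunit's head. The window of mRpL13 shares 93.2% of its bases with that of CG10602, so its reads cannot be assigned to one gene.

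The lowest was mRpS18B, one of a trio of mitochondrial counterparts of a single bacterial protein (FBgn0032849, minus strand, dm3 chr2L:20097565-20098065). It had 11.6 and 20.6 CPM in neurons, 18.2 and 10.6 in brat numb RNAi, 10.03 and 23.5 in brat RNAi, and 10.4 and 10.1 in type I neuroblasts. It was the 1 gene of the 72 below the all-gene median (48.1st percentile), and its window shares 41.5% of its bases with that of Kua. Its levels were highest in the 3 libraries with the highest lower quartile of all genes. Only 1 start of each gene was counted, the outermost, so a low value need not hold for another start. Next lowest, far above it, were mRpL45 (96.7 CPM), whose mammalian counterpart tethers the ribosome to the inner membrane, mRpL12 (97.7), the stalk protein that recruits elongation factors, and mRpS6 (99.3).

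The genes share an arrangement that their choice did not use. A gene on the opposite strand starts within 500 bases upstream, head to head, at 44 of the 72 genes (61.1%), against 23.6% of all genes. Over all genes, the median H3K4me3 level was 140.2 CPM at head-to-head starts and 11.1 CPM at the others. Among the mitoribosomal protein genes it was 151 CPM at the 44 head-to-head starts and 155 CPM at the other 28, with quartiles of 124 to 166 and 131 to 177 CPM. High H3K4me3 was thus also present at those with no such neighbour. Median levels by chromosome were 145 to 159 CPM. Only 5 H3K4me3 windows of the set (6.9%, against 5.4% of all genes) overlap that of another gene.

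The comparison of neurons with type I neuroblasts sets differentiated progeny beside stem cells. No mitoribosomal protein gene passed edgeR's quasi-likelihood test (adjusted p under 0.05 over 14185 genes; 0.451% of all genes passed). None was under an unadjusted p of 0.05 (7.23% of all genes were), and DESeq2 called 0 of the 71 with an adjusted p (5.14% of all genes). The median log2 fold change was -0.53, against 0.24 over all genes, and 66 of 72 genes were below 0 (40.5% of all genes were). Upper-quartile scaling (chosen after the data were seen) shifted all genes upward: the median of the set was 0.04, with 38 genes above 0, and that of all genes 0.92. The set's median minus that of all genes was -0.88 with this scaling and -0.77 with TMM. A scaling factor shifts all genes almost alike, so this difference could change little and is no separate check. The set's median sat just above the upper quartile in every library, so this scaling places it near 0. Without neurons library 2 the median of the set was -0.24, against -0.05 over all genes. Both libraries of neurons lay below both of type I neuroblasts at 41 genes (56.9%, against 19.5% of all genes), and above at 1 gene, mRpS18B (23.6% of all genes). Large-subunit and small-subunit genes had medians of -0.54 and -0.52.

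The median log2 ratio was -0.35 between the libraries of SBa code 27 and -0.80 between those of code 51, where all genes had 0.08 and 0.25. With the code as a block and 1 residual degree of freedom left, edgeR called 28 of the 72 genes lower in neurons, or 38.9%, against 16.2% of all genes. The count of calls thus turned on the block.

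The 5 most negative fold changes belonged to mRpL32, mRpL1, mRpL51, mRpS2 and mRpL45. At mRpL32, a large-subunit protein whose maturation by an inner-membrane protease is known from yeast and mouse, the level was 83.2 and 80.6 CPM in neurons, against 185 and 183 CPM in type I neuroblasts (log2 fold change -1.17, SE 0.67, adjusted p = 0.777, edgeR). At mRpL1, of the mobile stalk beside the exit site for transfer RNA, it was 118 and 65.0 CPM in neurons, against 219 and 190.2 CPM in type I neuroblasts (log2 fold change -1.16). Neither gene's libraries overlapped between the groups, yet neither difference passed the threshold (unadjusted p = 0.0826 and 0.084, edgeR). At mRpL51 the level was 75.3 and 50.5 CPM in neurons, against 138 and 136 CPM in type I neuroblasts (log2 fold change -1.12). At mRpS2, a small-subunit protein shared with bacteria, it was 101 and 70.0 CPM in neurons, against 198 and 172 CPM in type I neuroblasts (log2 fold change -1.11). At mRpL45 it was 87.1 and 40.5 CPM in neurons, against 156 and 114 CPM in type I neuroblasts (log2 fold change -1.08). All 5 log2 fold changes stayed below 0 with every scaling and every library left out, upper-quartile scaling included, where they were -0.61 to -0.52. The 5 were picked as the most negative in these same libraries, so the kept sign is no separate check. Each of the 5 was called with the SBa code block (adjusted p = 0.000728 to 0.00156, edgeR); their adjusted p reached 0.999 to 1 at the other end of the alternatives.

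At the other end stood mRpS18B, mRpS5, mRpS21, mRpS10 and mRpS7, all named for the small subunit. At mRpS21, the counterpart of a small bacterial ribosomal protein, H3K4me3 was 266 and 156 CPM in neurons, against 213 and 148 CPM in type I neuroblasts (log2 fold change 0.23, SE 0.64). At mRpS10 it was 216 and 153 CPM in neurons, against 193 and 151 CPM in type I neuroblasts (log2 fold change 0.11, SE 0.65). The groups overlap at both. Set against the median of the 72 genes in the same library, mRpS21 stood at 1.62 and 1.54 of it in neurons and at 0.97 and 0.83 in type I neuroblasts, and mRpL1 at 0.72 and 0.64 in neurons and at 1.00 and 1.07 in type I neuroblasts. Of the 72 genes 60 kept their place relative to that median to within 0.5 log2 units between the group means.

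**Figure D2:**
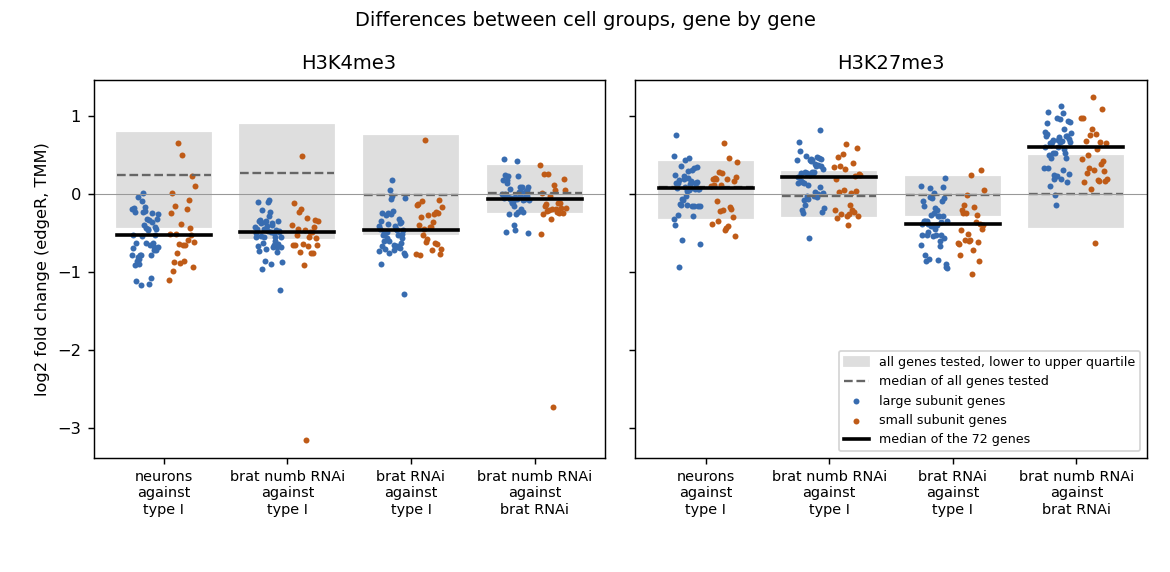
Log2 fold change (edgeR, TMM scaling) of each of the 72 genes in the 4 comparisons of each mark, large-subunit genes in blue and small-subunit genes in orange, with medians as black lines and all genes tested in grey. For H3K4me3 the medians were -0.53 in neurons, -0.50 in brat numb RNAi and -0.46 in brat RNAi, all against type I neuroblasts, and -0.06 between both RNAi groups; for H3K27me3 they were 0.08, 0.21, -0.39 and 0.60.

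Neuroblasts with brat RNAi were compared with type I neuroblasts, which sets cells labelled tumor neuroblasts beside another neuroblast type. No gene of the set was called by edgeR (0.0987% of all genes were) or by DESeq2 (1.3% of all genes were), and 1 was under an unadjusted p of 0.05, mRpL37 (5.52% of all genes were). The median log2 fold change was -0.46, against -0.02 over all genes, with 69 of 72 genes below 0 (50.7% of all genes were). With upper-quartile scaling the median was 0.05, with 40 genes above 0, and all genes had 0.54. The set's median minus that of all genes was -0.49, against -0.44 with TMM, a difference that scaling can change little. The median rested on the library: it was -0.89 without brat RNAi library 1 and -0.089 without library 2. Libraries of brat RNAi lay below those of type I neuroblasts without overlap at 36 genes (50%, against 21.6% of all genes), and above at 1, mRpL20 (21.8% of all genes). Between the 2 libraries of code 27 the median was -0.30, against 0.05 over all genes.

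In this comparison mRpL37 stood apart from the rest of the set. It had 275 and 139 CPM in brat RNAi, against 605 and 403 CPM in type I neuroblasts (log2 fold change -1.28, SE 0.59, unadjusted p = 0.0303, adjusted p = 0.804, edgeR). With the SBa code block its adjusted p was 0.0408, a call that 2.31% of all genes shared as lower, and over the 16 alternatives it ranged up to 1, with a log2 fold change of -1.86 to -0.78. In brat numb RNAi it had 109.5 and 319 CPM, again below both type I libraries (log2 fold change -1.23, SE 0.59, unadjusted p = 0.0368, adjusted p = 0.639, edgeR), and in neurons 429 and 182 CPM. With the code block the log2 fold change of brat numb RNAi was -0.11 relative to type I neuroblasts and 1.20 relative to brat RNAi. Within brat numb RNAi both rest on library 2 alone, as library 1 is the only one of its code. For neurons against type I neuroblasts the block gave -0.82 (adjusted p = 0.0259, edgeR, 1 residual degree of freedom). There 16.2% of all genes were called lower. The lower value in brat numb RNAi was thus not kept under the block. Relative to the median of the 72 genes, mRpL37 stood at 2.60 and 1.80 in neurons, 1.29 and 1.71 in brat numb RNAi, 1.56 and 1.39 in brat RNAi, and 2.75 and 2.26 in type I neuroblasts. All 4 RNAi libraries were below the other 4 on that scale. Dividing by the median takes out a shift of the whole library, but not a narrower span between low and high genes. The gene was picked for its fold change in these same libraries. How many of the 72 genes split in this way was not counted.

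The next most negative fold changes in brat RNAi were -0.90 at mRpL35, -0.79 at mRpL50, -0.78 at mRpS31 and -0.77 at mRpS2. The positive ones were mRpS18B (0.69), mRpL20 (0.17) and mRpL13 (0.05). At mRpL20, which in bacteria binds ribosomal RNA early in assembly of the large subunit, the level was 234 and 212 CPM in brat RNAi, against 203 and 192 CPM in type I neuroblasts. These do not overlap, but the difference is far within its error (SE 0.63, adjusted p = 0.912, edgeR).

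Neuroblasts with brat and numb RNAi were compared with the same type I libraries. The median log2 fold change was -0.50, against 0.27 over all genes, with 71 of 72 genes below 0 (44.2% of all genes were). With upper-quartile scaling the set had 0.11, with 46 genes above 0, and all genes had 1.06. The set's median minus that of all genes was -0.95, against -0.76 with TMM, again a difference that scaling can change little. No gene of the set was called by edgeR (0% of all genes were) or DESeq2 (0.0423% of all genes were), and mRpL37 was the 1 gene under an unadjusted p of 0.05 (3.26% of all genes were). Libraries did not overlap at 18 lower genes (25%, against 16.7% of all genes) and at 1 higher gene, mRpS18B (21.1% of all genes). No SBa code is shared by these groups, so no pair of libraries within a code could be compared. With the code as a block, the comparison rests on the brat RNAi libraries, which carry codes 27 and 68, and the median was 0.36, of opposite sign, with 0.05 over all genes. Without brat numb RNAi library 2 the median was -1.18, and without library 1 it was -0.09. After mRpS5 and mRpL37, the most negative log2 fold changes were -0.96 at mRpL12, -0.91 at mRpS22 and -0.90 at mRpL14.

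In brat numb RNAi against brat RNAi the median H3K4me3 log2 fold change of the set was -0.06, with 0.01 over all genes, and 25 genes were above 0 (34.7%, against 51% of all genes). With upper-quartile scaling 37 genes were above 0 and the median was 0.01, with 0.16 over all genes. Neither edgeR (0% of all genes called) nor DESeq2 (0.0775%) called a gene of the set, and none was under an unadjusted p of 0.05 (1.52% of all genes were). Libraries did not overlap at 5 lower genes (6.94%, against 5.1% of all genes), which were mRpS5, mRpL13, mRpL16, mRpL39 and mRpL49, and at 0 higher genes (10.2% of all genes). The most positive log2 fold changes were 0.45 at mRpL35, 0.42 at mRpL40 and 0.37 at mRpS2, each with an SE of 0.67. The direction turned on the library: between the libraries of code 68 the median was 0.84, with 66 of 72 genes above 0, and all genes had 0.06. With the code as a block, this comparison rests on the same 2 libraries, as brat numb RNAi library 1 is the only one of its code. The block median of 0.84 is therefore no second result, and calls under the block are not read as results here. Those 2 libraries held 11141538 counts in brat numb RNAi and 2461222 in brat RNAi.

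One gene, mRpS5, followed the SBa code and not the cell group. It encodes the counterpart of a bacterial protein at the messenger RNA entry of the small subunit (FBgn0044510, plus strand, dm3 chr3L:24530335-24530835, near the end of the arm's table). It had 574 and 21.6 CPM in neurons, 25.04 and 22.0 in brat numb RNAi, 272 and 40.2 in brat RNAi, and 392 and 30.3 in type I neuroblasts. The high value is in each case the library of code 27, a code that no brat numb RNAi library carries. Its log2 fold change was -3.17 in brat numb RNAi relative to type I neuroblasts (SE 2.05, adjusted p = 0.639, edgeR) and -2.73 against brat RNAi (SE 2.02, adjusted p = 1, edgeR).

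The first of these was called in a fit of the compared groups alone (log2 fold change -2.90, adjusted p = 0.0025, edgeR; 0.268% of all genes were called lower there), without type I library 2 (adjusted p = 0.00154) and without neurons library 1 (adjusted p = 0.0161), and reached an adjusted p of 1 in others. Without type I library 1 its log2 fold change was -0.36. The same pattern was present in its neighbourhood. Of the other 18 genes of 3L with windows from 23 Mb on, 9 had all 3 libraries of code 27 above all 5 others (50%), as did 42 of 85 genes of chromosome 4 (49.4%), against 10.5% of all genes. Among the 71 mitoribosomal protein genes other than mRpS5 it was 10 (14.1%).

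**Figure D3:**
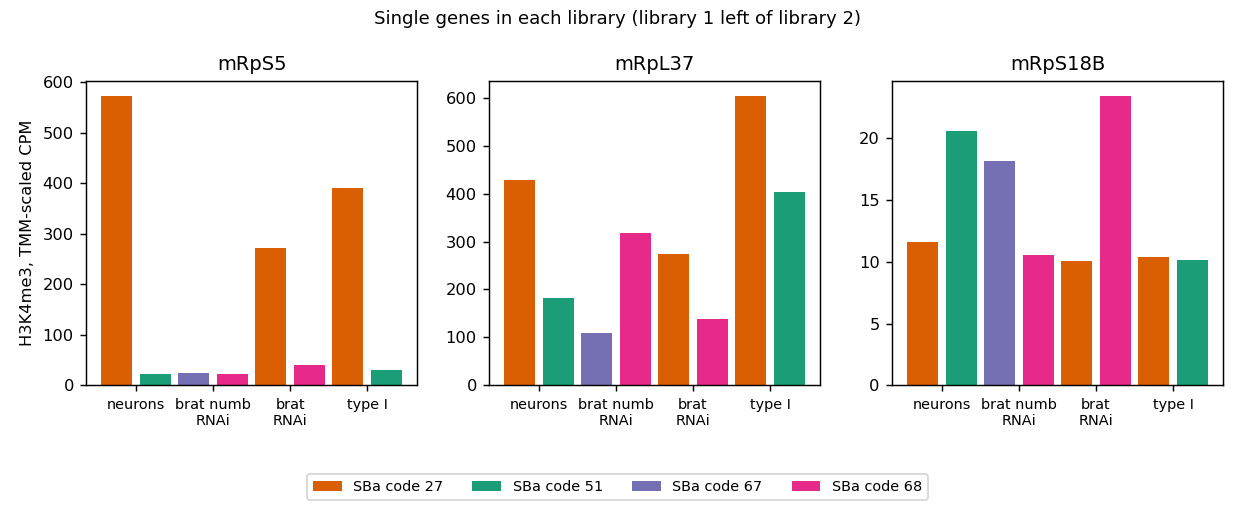
H3K4me3 (TMM-scaled CPM, linear axes from 0) at mRpS5, mRpL37 and mRpS18B in each library, coloured by SBa code. For mRpS5 the 3 libraries of code 27 reach 272 to 574 CPM and the other 5 stay at 21.6 to 40.2 CPM; for mRpL37 both type I libraries exceed all 4 RNAi libraries.

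H3K27me3 was counted over whole gene models and is given as CPM per kb. Gene models of the set were short (median 860.5 bases, 345 to 13388, against 2029 bases over all genes), and 40 of the 72 (55.6%, against 37.7% of all genes) overlap another gene, with which reads are shared. The mitoribosomal protein genes had H3K27me3 read levels near or below the middle of all genes. No input was subtracted, so a low level of the mark and background reads cannot be told apart here. Their median was 6.69 and 7.96 CPM per kb in neurons, 8.08 and 8.72 in brat numb RNAi, 5.27 and 6.50 in brat RNAi, and 6.95 and 7.49 in type I neuroblasts, where the median of all genes was 8.46 to 8.71. In brat numb RNAi library 2 the set's median was above that of all genes (8.61), with 37 of 72 genes above it, and in the other 7 libraries it was below. At most 1 gene of the 72 exceeded the 95th percentile of all genes in any library, and 56 had a mean at or below the median of all genes.

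**Figure D4:**
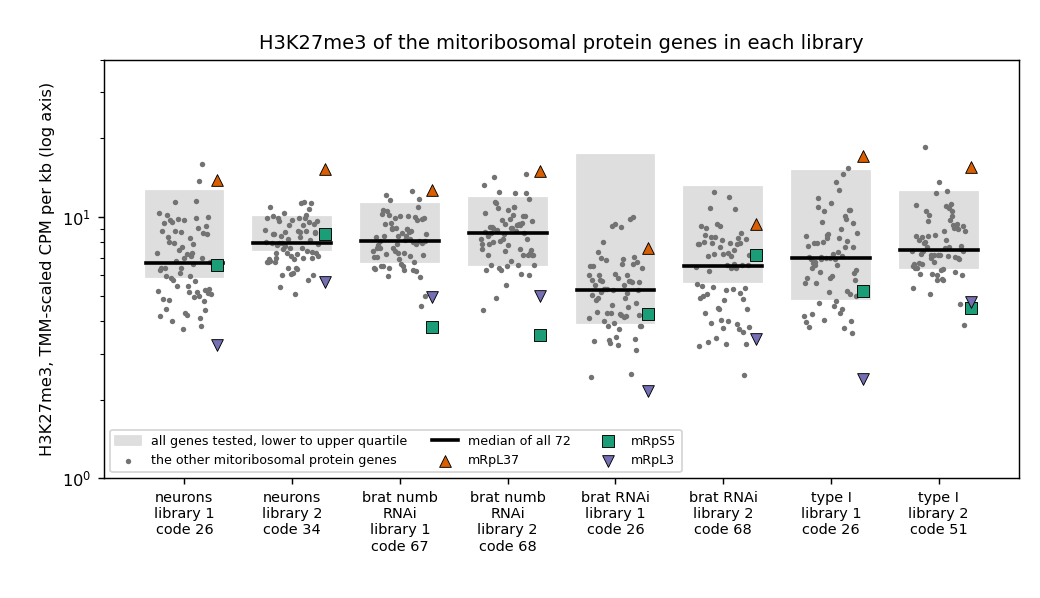
H3K27me3 of the 72 genes in each of 8 libraries (TMM-scaled CPM per kb, log axis), drawn as for H3K4me3, with mRpL37, mRpS5 and mRpL3 marked. The medians lie between 5.27 and 8.72 CPM per kb, lowest in the brat RNAi libraries, inside the span of the lower and upper quartile of all genes.

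The highest was again mRpL37, at a mean of 13.3 CPM per kb (77.4th percentile of all genes), followed by mRpS7 (11.1) and mRpL34 (11.1). The lowest were mRpL3 (3.94) and mRpL2 (4.35), counterparts of the bacterial proteins nearest the peptidyl transferase centre, and mRpL53 (4.74), whose gene model is wholly shared with AGO1 and CG33155. Across the 72 genes the mean levels of both marks correlated at r = 0.387 on a log2 scale. This is a description only: the 2 sets of libraries cover the same cell groups, and genes are not independent.

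Neither edgeR nor DESeq2 called a gene of the set for H3K27me3, and edgeR called 0% of all genes in each of the 4 comparisons. DESeq2 gave an adjusted p to 62 of the 72 genes in neurons against type I neuroblasts (0.381% of all genes called there), to all 72 in brat numb RNAi against type I neuroblasts (0% of all genes called), to 5 in brat RNAi against type I neuroblasts and to 0 in brat numb RNAi against brat RNAi. In the last 2 comparisons its count of 0 therefore rests on few genes or none. It is given without the share of all genes called there and is not read as a result about the set.

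In neurons against type I neuroblasts the median log2 fold change was 0.08, the same as over all genes, and 43 of 72 genes were above 0 (59.7%, against 55.7% of all genes). No gene of the set was under an unadjusted p of 0.05 (9% of all genes were). Libraries did not overlap at 10 higher genes (13.9%, against 18.8% of all genes) and 14 lower genes (19.4%, against 23.9%). The extremes were mRpL17, with 7.89 and 11.3 CPM per kb in neurons, against 4.31 and 7.07 in type I neuroblasts (log2 fold change 0.76, SE 0.35, adjusted p = 0.527, edgeR), and mRpL34, with 5.83 and 9.69 in neurons, against 11.9 and 18.5 in type I neuroblasts (log2 fold change -0.95, SE 0.45, adjusted p = 0.527, edgeR). Next came mRpS5 (0.65) and mRpL10 (0.48) on the positive side, mRpL50 (-0.65) and mRpL18 (-0.59) on the negative.

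In brat RNAi against type I neuroblasts the median log2 fold change was -0.39, against -0.01 over all genes, and 64 of 72 genes were below 0 (51% of all genes were). Libraries lay lower without overlap at 37 genes (51.4%, against 14.5% of all genes) and higher at 0 genes (15.3%). Under an unadjusted p of 0.05 were 9 genes, all lower (12.5%, against 2.82%). At mRpL37 the level was 7.64 and 9.37 CPM per kb in brat RNAi, against 17.2 and 15.6 in type I neuroblasts (log2 fold change -0.94, SE 0.28, unadjusted p = 0.00777, adjusted p = 0.685, edgeR), so both marks had their lower values in brat RNAi at this gene. At mRpS18C it was 5.67 and 3.91 CPM per kb in brat RNAi, against 10.1 and 9.30 in type I neuroblasts (log2 fold change -1.02), and at mRpL50 4.92 and 5.31 in brat RNAi, against 9.04 and 10.8 in type I neuroblasts (log2 fold change -0.96). The most positive log2 fold changes, at mRpS21 (0.30), mRpS5 (0.24) and mRpL24 (0.20), had overlapping libraries.

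In brat numb RNAi against type I neuroblasts the median was 0.21, against -0.02 over all genes, with 50 of 72 genes above 0 (48.3% of all genes were). Libraries did not overlap at 31 higher genes (43.1%, against 24.2% of all genes) and 7 lower genes (9.72%, against 29.3%), and 1 gene, mRpL54, was higher at an unadjusted p under 0.05 (1.1% of all genes were). It had 8.40 and 13.3 CPM per kb in brat numb RNAi, against 5.87 and 6.41 in type I neuroblasts (log2 fold change 0.82, SE 0.35, adjusted p = 0.859, edgeR). Then came mRpL17 (0.66) and mRpS22 (0.64), and at the other end mRpL55 (-0.56), mRpS5 (-0.40) and mRpS7 (-0.31).

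The H3K27me3 median farthest from 0 was that between both RNAi groups. In brat numb RNAi against brat RNAi the median was 0.60, against -0.00 over all genes, and 69 of 72 genes were above 0 (49.9% of all genes were). Libraries did not overlap at 53 higher genes (73.6%, against 30.7% of all genes) and 1 lower gene, mRpS5 (29.7%). At an unadjusted p of 0.05, 20 genes were higher (27.8%, against 8.61% of all genes). The positive direction held without each library and between the libraries of code 68 (median 0.50, 59 of 72 genes above 0). It also held with TMM, library totals, DESeq2 size factors and upper-quartile scaling. A scaling factor shifts all genes almost alike, so these scalings are no separate checks. With them the set's median minus that of all genes was 0.59 to 0.60.

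The largest log2 fold change was at mRpS22, a small-subunit protein specific to mitochondria, with 9.09 and 8.08 CPM per kb in brat numb RNAi, against 3.83 and 3.44 in brat RNAi (log2 fold change 1.24, SE 0.34, unadjusted p = 0.00523, adjusted p = 0.2, edgeR). At mRpL48 the level was 7.42 and 9.76 in brat numb RNAi, against 3.31 and 4.50 in brat RNAi (log2 fold change 1.13, SE 0.31, adjusted p = 0.197, edgeR). At mRpS30 it was 6.21 and 7.17 in brat numb RNAi, against 2.52 and 3.74 in brat RNAi (log2 fold change 1.09, SE 0.31, adjusted p = 0.201, edgeR). None of these levels exceeded 10 CPM per kb, near the median of all genes. The negative log2 fold changes were mRpS5 (-0.63), mRpL55 (-0.14) and mRpL13 (-0.01).

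The floor of the libraries moved with this result. The lower quartile of all genes was 6.76 and 6.55 CPM per kb in brat numb RNAi and 3.94 and 5.67 in brat RNAi, while the upper quartile was 11.2 and 11.8 in brat numb RNAi and 17.3 and 13.1 in brat RNAi. The median of the 72 genes was 1.19 and 1.33 times the lower quartile in brat numb RNAi and 1.34 and 1.15 times in brat RNAi. The part of the spread between low and high genes in the difference was not tested.

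Other gene groups of the same pathway, with direction and size, were set beside the mitoribosomal protein genes for H3K4me3. Of the 3 mitoribosomal proteins under other names, tko had 213 and 154 CPM in neurons, against 121 and 94.8 CPM in type I neuroblasts, and bonsai had 143 and 112 CPM in neurons, against 242 and 202 CPM in type I neuroblasts. Rlc1 overlapped between these groups, so the 3 showed no shared direction. In neurons against type I neuroblasts the median log2 fold change was -0.43 for 9 mitochondrial translation factors, -0.60 for 18 mitochondrial tRNA synthetases, -0.81 for 12 genes of mitochondrial DNA maintenance and transcription, -0.27 for 34 nuclear genes of oxidative phosphorylation and -0.46 for 91 cytoplasmic ribosomal protein genes. In brat numb RNAi against type I neuroblasts these medians were -0.47, -0.43, -0.54, -0.79 and -0.85, and in brat RNAi against type I neuroblasts -0.39, -0.35, -0.46, -0.52 and -0.56. These comparisons share the type I libraries.

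For H3K27me3 in brat numb RNAi against brat RNAi the same 5 lists had medians of 0.65, 0.66, 0.63, 0.52 and 0.44. The difference at mitoribosomal protein genes was thus of the size seen in other lists of widely used genes. No gene of these 6 lists was called by edgeR in any of the 8 comparisons. Under an unadjusted p of 0.05 for H3K4me3 in neurons were 2 cytoplasmic ribosomal protein genes, 1 translation factor and 1 gene of mitochondrial DNA maintenance, all lower, or 2.2%, 11.1% and 8.33% of their lists, against 7.23% of all genes in either direction. DESeq2 called 2 of the 85 cytoplasmic ribosomal protein genes with an adjusted p and 1 of the 12 genes of mitochondrial DNA maintenance lower there, where it called 5.14% of all genes.

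**Figure D5:**
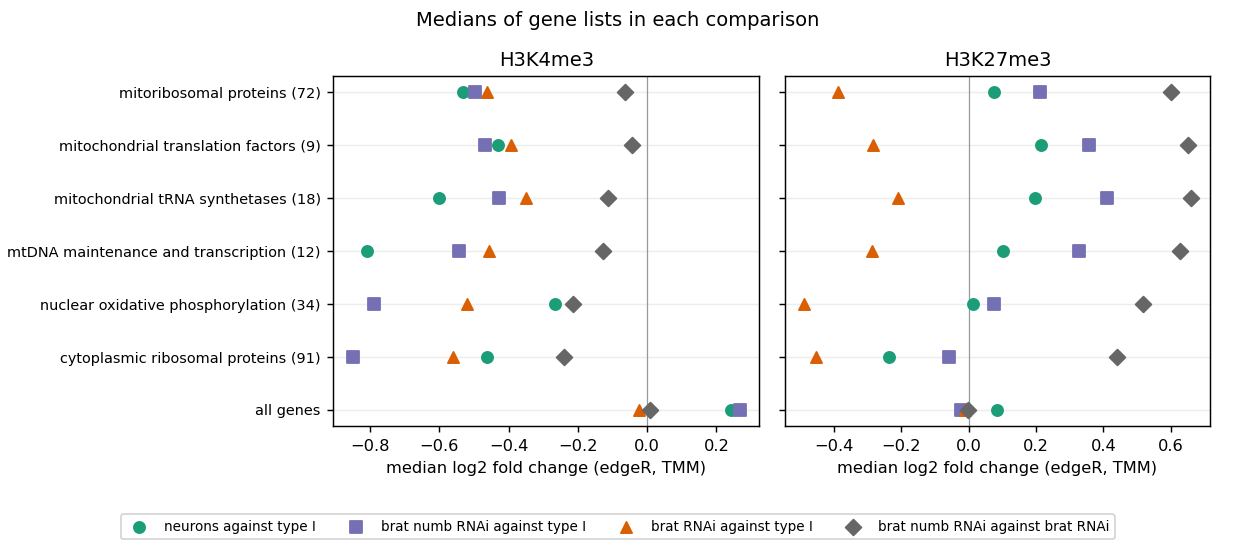
Median log2 fold change (edgeR, TMM scaling) of each gene list in the 4 comparisons of both marks, with the number of genes in brackets and all genes tested in the bottom row. The mitoribosomal protein genes lie among the other mitochondrial and ribosomal lists, from -0.53 to -0.06 for H3K4me3 and from -0.39 to 0.60 for H3K27me3.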

How the data were processed

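Cells from L3 larval brains were profiled by MNase ChIP-seq, and 16 of the deposited count tables (8 per mark, 2 per group) were used; the 14 inputs were not analysed here. The authors deposited whole-number counts of reads per gene, with no normalization. Per the file headers, the counted interval is 501 bases from each gene's start for H3K4me3 and the gene model for H3K27me3. The submitters' processing notes name dm3, bedtools 2.25.0, Bowtie2 2.2.4 and deepTools 2.5.0.1; the counting tool and the treatment of duplicate reads are not given in the sources used here. No input was subtracted.

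The counts were fitted with edgeR 4.0.16 in R 4.3.3 (quasi-likelihood F-test, robust, TMM, filter on low counts by group, 14185 and 14182 genes kept, group means over all 8 libraries of a mark, 4 residual degrees of freedom). P-values were adjusted by Benjamini-Hochberg over all genes tested, threshold 0.05. SE is the absolute log2 fold change over the square root of F. Counting error is largest in the H3K4me3 libraries with 2461222 and 3660892 counts. Alternatives were DESeq2 1.42.0, other scalings, no filter, the groups compared alone, replicate and SBa code blocks, each library left out, and members with unshared windows; upper-quartile scaling was added after the data were seen. In simulated data the fit recovered 199 (H3K4me3) and 200 (H3K27me3) of 200 planted log2 changes of 4, with 8 and 15 false calls. Changes that large say nothing about the power for the smaller differences seen in the set.

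The gene set and lists were chosen with earlier results of these data known. Named were the 5 (H3K4me3) or 3 (H3K27me3) genes with the largest fold changes each way per comparison and the 4 (H3K4me3) or 3 (H3K27me3) with the highest and lowest mean levels. Levels relative to the set's median, head-to-head starts and the comparison of code 27 with the other libraries were computed after values were seen. All 72 genes were matched to a later RefSeq gene table, from which only names were used; mEFG2 was not matched, and 2 list genes on chromosome 4 were left out. Sequences were not analysed here.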

Additional observations from a re-analysis of the deposited data

How the results depend on the processing

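For the 72 genes, 8 counts of calls and 8 median log2 fold changes were recomputed under 256 alternatives in all. Of these, 239 left the value within the limits set. For a count the limit was 1.5 times, but all 8 counts were 0 in the main fit, so it meant staying at 0. For a median it was the spread between libraries, which was wide. In brat RNAi against type I neuroblasts all 17 H3K4me3 alternatives stayed within it, with medians from -0.89 to 0.05. The tally therefore does not show that the medians were stable. For H3K4me3 the SBa code block gave 28 calls in neurons, 1 in brat RNAi and, against brat RNAi, 26 in brat numb RNAi, and medians in brat numb RNAi of 0.36 relative to type I neuroblasts and 0.84 relative to brat RNAi. For H3K27me3 that block leaves no residual degree of freedom and was not run. A fit of the compared groups alone called 1 gene, mRpS5, lower for H3K4me3 in brat numb RNAi against type I neuroblasts (0.268% of all genes were). Upper-quartile scaling gave H3K4me3 medians of 0.044 in neurons and 0.11 in brat numb RNAi, both against type I neuroblasts, where all genes had 0.92 and 1.06. A scaling factor shifts all genes almost alike, so the distance of the set from all genes could change little. Library totals gave H3K27me3 medians of 0.40 and 0.92 in brat numb RNAi relative to type I neuroblasts and to brat RNAi, where all genes had 0.17 and 0.33. With library totals the H3K4me3 medians of the set against type I neuroblasts were -0.26 in neurons, -0.06 in brat RNAi and -0.04 in brat numb RNAi, where all genes had 0.61, 0.39 and 0.83.

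Leaving out each library in turn gave, for H3K4me3 in brat numb RNAi relative to type I neuroblasts, a median of -1.18 (without brat numb RNAi library 2) to -0.087 (without library 1). For brat numb RNAi against brat RNAi the range was -0.75 (without brat numb RNAi library 2) to 0.39 (without brat RNAi library 1). The H3K4me3 range was -0.73 to -0.24 for neurons and -0.89 to -0.09 for brat RNAi, without library 1 and without library 2 of each. For H3K27me3 it was -0.11 (without neurons library 2) to 0.17 in neurons, -0.55 (without brat RNAi library 2) to -0.32 in brat RNAi, 0.14 to 0.27 in brat numb RNAi, each against type I neuroblasts, and 0.46 to 0.85 (without brat RNAi library 2) for brat numb RNAi against brat RNAi. The cause of these shifts was not tested.

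Replicate numbers share only a label: the deviations of same-numbered libraries correlated at 0.74 and 0.445 for H3K4me3 in neurons and brat RNAi against type I neuroblasts, but at -0.314 and -0.616 in the comparisons of brat numb RNAi, and for H3K27me3 at 0.607, 0.57, -0.365 and -0.415. With the replicate block 0 genes of the set were called in any of the 8 comparisons. H3K4me3 libraries held 2461222 to 12258131 counts, and whether depth or variation between libraries set the error of single genes was not tested.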
